A study of Mus musculus with 32 samples.

Results

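RNA tags that fell inside LINE L1 repeats were followed from the RNA to the chromatin they had been ligated to. A tag was counted as L1 where the deposited repeat annotation gave it the class LINE and the family L1, on the same strand as the RNA. By this rule, 329115 of the 25231081 interactions of the series, or 1.30%, had an L1 RNA tag. The 22391945 interactions whose RNA tag carried no repeat annotation served for comparison. In the paper the overlap with repeats was strand-specific, so tags antisense to a repeat, L1 included, may be among them. The L1 tags lay in 35900 annotated elements with 131 L1 names and in 6497 host genes, and 409 of the interactions carried a second repeat annotation.

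RADICL-seq ligates RNA to neighbouring DNA in crosslinked nuclei through an adapter, so that each sequenced molecule gives an RNA tag and a DNA tag. It was run on R08 embryonic stem cells (mESC) and on Oli-neu cells (mOPC), a neural line derived from oligodendrocyte progenitors. Each cell type was represented by 1 line, so a difference between the cell types cannot be told apart from a difference between these lines. The 32 deposited samples hold RNA and DNA entries of 15 libraries, each of which counted as 1 replicate.

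Of the 6 groups, mESC 1FA was made from R08 cells fixed with 1% formaldehyde (3 libraries) and mESC 2FA from R08 cells fixed with 2% (3 libraries). The 2 mESC ActD4 libraries came from R08 cells held in actinomycin D, an inhibitor of transcription, at 5 µg/ml during 4 h before fixation. Oli-neu cells fixed with 1% formaldehyde gave mOPC 1FA (3 libraries), and mESC NPM and mOPC NPM had 2 libraries each. NPM stands for non-protein-mediated contacts, for which proteins were removed before the RNA was ligated. All R08 cells were grown without feeders in medium with serum and leukaemia inhibitory factor. Libraries listed between 251802 and 2832717 interactions, of which 1876 to 36899 had an L1 RNA tag. These totals count only interactions of transcript and bin pairs that the authors called significant, so a feature listed at 0 is not thereby absent from the cells. Summed marker levels followed the labels. The mESC markers, of which 15 of 16 were matched (Dppa5a was not), summed to 2492 to 3045 CPM (interactions scaled to the total of the library) in mESC 1FA. In mOPC 1FA they summed to 1.81 to 3.00 (13 of the 15 at 0). The 16 mOPC markers summed to 41.2 to 75.4 in mESC 1FA (7 or 8 at 0) and 21455 to 24253 in mOPC 1FA (1, Nkx2-2, at 0). The most listed in mOPC 1FA replicate 1 were Lhfpl3, Sox6, Cntn1 and Tnr (12916, 12554, 9565 and 6792 interactions), while Olig1 had 3, 3 and 2 in mOPC 1FA. Pdgfra, a marker of oligodendrocyte precursors, went the other way with 8, 56 and 69 interactions in mESC 1FA and 3, 8 and 4 in mOPC 1FA, and did not pass the filter of the test (at least 10 in 3 libraries).

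L1 elements are retrotransposons that copy themselves through an RNA intermediate, and most copies in a mammalian genome are old, truncated and immobile. Many lie in introns, where they are transcribed as part of the host gene's nascent RNA rather than from an L1 promoter of their own. RNA that contains L1 sequence has been described on chromatin, and stem cells hold L1 in check by DNA methylation and by the HUSH and KRAB zinc finger pathways. The names give a relative age: L1Md elements are the youngest in mouse, Lx and the L1_Mus, L1_Mur and L1_Rod names belong to the rodent lineage, L1M names are shared among mammals, and HAL1 is an old relative that retains only the gene for the RNA-binding protein.

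The most frequently ligated tag of each of the 10 leading L1 names is printed to show what these tags are, which is uniquely mapped stretches of L1 inside named genes. Each run is the 25 bases of GRCm38 (mm10) around the middle of the tag, read 5′ to 3′ on the RNA strand from the RefSeq genome, with runs of 3 or more A in capitals. The files do not state whether positions count from 0 or 1, so a window may lie 1 base off.
Lx8: aatatctgtgtttccctccctctaa
Lx9: cggacaatggtagcacttatttctt
Lx7: ttccctcccctcacatgtgacttag
L1M4: tataatgtaatatcgtcccaccgtg
L1M5: tttccctcctgagtAAAcatgctgg
Lx8b: acAAAAtctcagcgtggagtgggga
L1MB7: catgcaaggcggcctgcagaggagg
L1-Mur3: aaggaatAAAgAAAtagtgccagga
L1M2: aaggaagcagtcttaacagtgggag
L1MB8: atattgaattgatatattatcatgg

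The Lx8 tag lay in an intron of Babam2, a subunit of a BRCA1 complex (chr5:31714253-31714277, plus strand), the Lx9 tag in an intron of Arl15, a small GTPase (chr13:114028083-114028107, plus), and the Lx7 tag in an intron of Fgfr2, a fibroblast growth factor receptor (chr7:131337906-131337930, minus). The L1M4 tag was intronic in Exoc4, an exocyst subunit (chr6:33649310-33649334, plus), and the L1M5 tag was exonic in Kcnq1ot1, the imprinted antisense RNA of the Kcnq1 domain (chr7:143291874-143291898, minus). The remaining 5 were intronic, in 2610037D02Rik (Lx8b, chr15:96258830-96258854, minus), in the guidance cue gene Ntn1 (L1MB7, chr11:68360548-68360572, minus), in the kinase gene Gsk3b (L1-Mur3, chr16:38148640-38148664, plus), in the corepressor gene Rere (L1M2, chr4:150484274-150484298, plus) and in the actin nucleator gene Cobl (L1MB8, chr11:12414167-12414191, minus). Some of these positions were listed more often in 1 cell type, unevenly over the libraries. The Ntn1 tag had 48, 6 and 18 interactions in the mESC 1FA libraries and 6, 3 and 0 in mOPC 1FA, so that replicate 1 held 48 of the 72 in mESC 1FA. The Lx8b tag in 2610037D02Rik had 24, 34 and 38 in mOPC 1FA and 0 in every mESC 1FA library.

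L1 tags differed in base composition from tags without a repeat. In mESC 1FA, A made up 34.1 ± 0.22% (SD, n = 3) of the bases in the windows of L1 tags and 26.0 ± 0.32% in those of tags without a repeat, while GC content was 42.7 ± 1.05% and 47.0 ± 0.78%. In mOPC 1FA, A made up 34.3 ± 0.38% and 27.5 ± 0.37%. The L1 coding strand is rich in A, and all L1 tags were annotated on the strand of the element. AATAAA, the letters of the polyadenylation signal, stood in 2.36 ± 0.11% of L1 windows and in 0.957 ± 0.04% of the others in mESC 1FA. Its reverse complement TTTATT showed the opposite order, with 0.687 ± 0.015% and 1.23 ± 0.06%. A run of AAAAAA occurred in 8.90% of the windows of L1Md tags and in 1.49% of those of Lx tags over all libraries. These shares describe the letters alone.

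L1 tags made up a larger share of the contacts in mOPC 1FA than in mESC 1FA, and a smaller one after actinomycin D. In mESC 1FA they were 1.33%, 1.07% and 1.19% of all interactions, and in mOPC 1FA 1.67%, 1.54% and 1.55%. Every mOPC 1FA library was above every mESC 1FA library, and the means were 1.59 ± 0.07% and 1.2 ± 0.13% (SD, n = 3 each). In mESC ActD4 the share was 0.781% and 0.745%, below every mESC 1FA library. The mESC NPM libraries, at 1.28% and 1.26%, lay within the range of mESC 1FA, and the mESC 2FA libraries, at 1.18%, 1.06% and 1.32%, overlapped with it. The mOPC NPM libraries, at 1.30% and 1.45%, lay below mOPC 1FA.

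**Figure D1:**
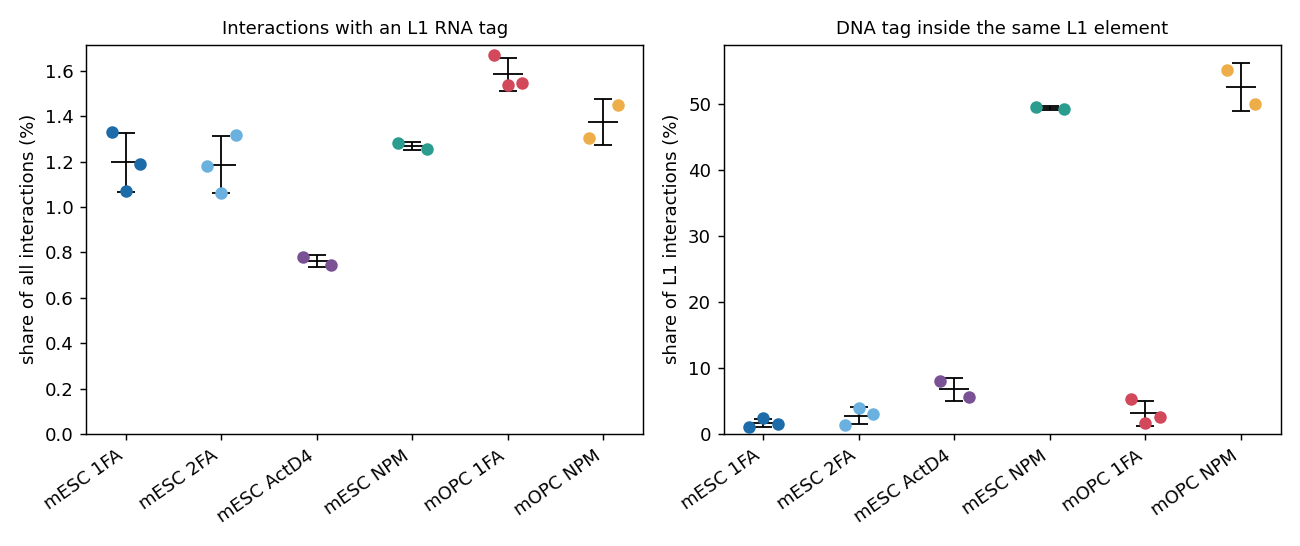
Left, percentage of all listed interactions that had an L1 RNA tag; right, percentage of L1 interactions whose DNA tag lay in the same L1 element. Points are libraries, bars the mean and SD; mESC ActD4 is lowest on the left (0.763%), and the NPM groups stand near 50% on the right (49.4% and 52.6%).

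With so few libraries no single pair of groups could pass the test. The difference between mOPC 1FA and mESC 1FA was 0.388 percentage points (two-sided exact permutation test, p = 0.1, the smallest this design allows, adjusted p = 0.175 over the 7 comparisons), and that between mESC ActD4 and mESC 1FA was −0.434 points (exact p = 0.1, adjusted p = 0.175). Compared over 1FA and NPM with libraries permuted within condition, mOPCs exceeded mESCs by 0.247 points (exact p = 0.0167, the smallest possible, adjusted p = 0.117), which did not pass the adjustment. With own-gene contacts of each RNA left out, this difference was −0.076 points. mESC 2FA differed from mESC 1FA by −0.010 points (exact p = 0.7). In bulk libraries, fewer cells that make an RNA and less RNA per cell cannot be told apart. Every pair of transcript and bin shared by 2 replicate files had 1 p-value in both, so the replicate lists were not called independently, and what this does to the spread between them was not tested.

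L1 tags were almost wholly intronic. In mESC 1FA, 95.5% of L1 tags and 83.6% of tags without a repeat lay in introns, and in mOPC 1FA 95.8% and 75.9%. Coding sequence held 0.16% of L1 tags in mESC 1FA against 6.14% of the others. The host genes were long, with a median over tags of 149 kb against 103 kb in mESC 1FA and 233 kb against 114 kb in mOPC 1FA. Among intronic tags alone, L1 tags had their median position at 45.1% of the host gene's length in mESC 1FA, and tags without a repeat at 43.1%.

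On the same chromosome, L1 tags reached farther than tags without a repeat. The median distance from the RNA to the DNA tag was 177, 151 and 157 kb for L1 tags in the mESC 1FA libraries and 136, 114 and 127 kb for tags without a repeat. In mOPC 1FA it was 162, 217 and 203 kb against 108, 144 and 126 kb. The L1 median was the higher one in each of the 6 libraries, by 52.1 kb on average (two-sided exact sign-flip permutation test, p = 0.031, the smallest possible with 6 libraries, adjusted p = 0.039 over 5 measures).

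The L1 shares were higher beyond 100 kb. From 100 kb to 1 Mb, mESC 1FA held 46.0 ± 1.3% of L1 interactions and 41.3 ± 1.1% of interactions without a repeat, and mOPC 1FA 38 ± 1.2% and 31.5 ± 1.4%. Beyond 1 Mb in cis mESC 1FA held 12.9 ± 0.61% and 11.4 ± 0.45%, and mOPC 1FA 22 ± 1.5% and 14.9 ± 0.90%. The differences were above 0 in all 6 libraries, with means of 5.58 and 4.25 points (exact p = 0.031 and adjusted p = 0.039 for each). Within 1 kb the L1 share was 0.373 points lower on average, higher in 1 of 6 libraries, and the difference did not pass the test (exact p = 0.219). When the groups were thinned to equal numbers of interactions and only pairs of transcript and bin with at least 5 left were kept, none of these differences passed after adjustment. The median distance then differed by 16.4 kb and the share from 100 kb to 1 Mb by 6.63 points (adjusted p = 0.0521 for each, exact), and the share beyond 1 Mb by 1.12 points, above 0 in 4 of 6 libraries (adjusted p = 0.219, exact). After actinomycin D, the cis distances of both kinds of tag were short, with medians of 38.6 kb for L1 tags and 26.7 kb for the others. These libraries listed only 418781 and 251802 interactions, against 2441619 to 2832717 in mESC 1FA. Whether the lower number of listed interactions shortened the distances was not tested.

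**Figure D2:**
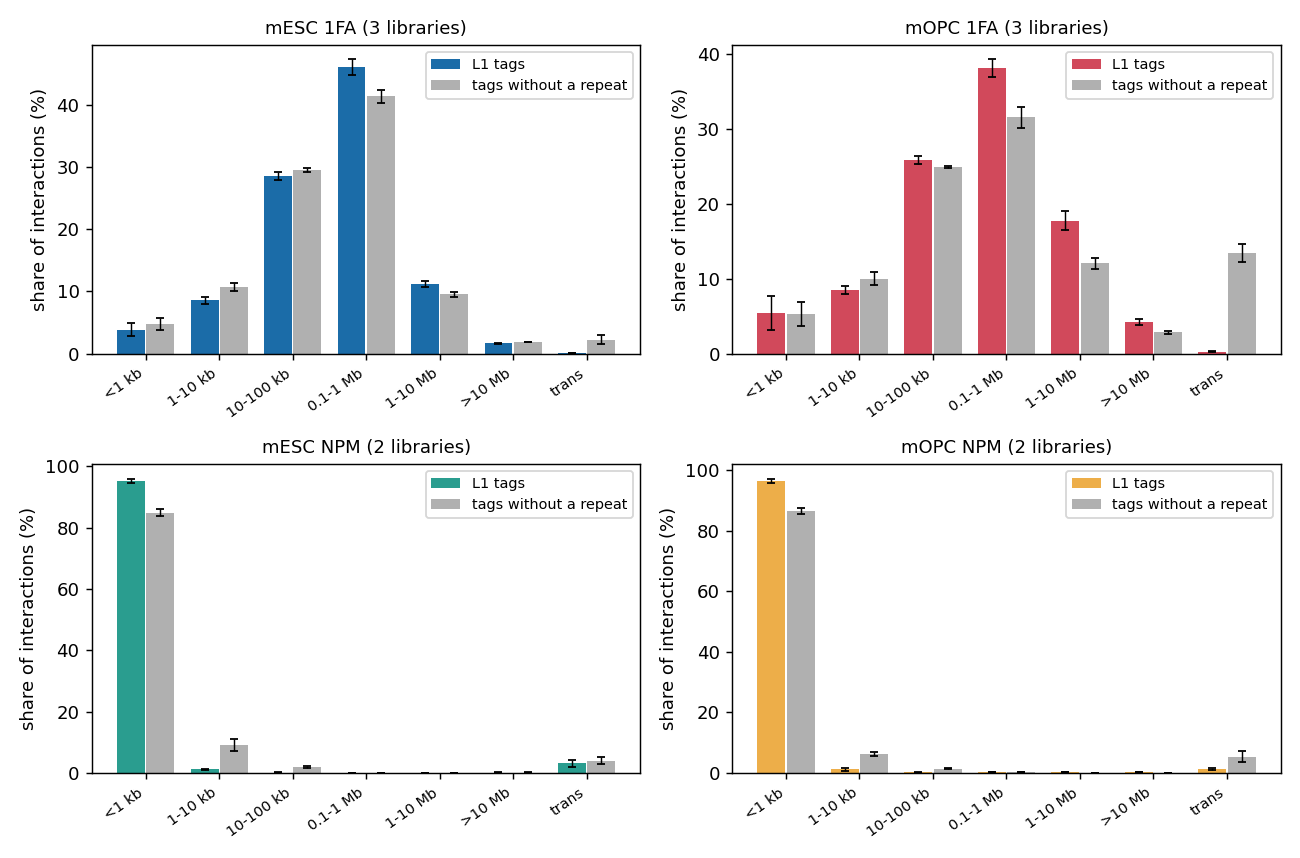
Percentage of interactions in each distance class between RNA and DNA tag (axis in percent, bars are means over libraries, error bars the SD), for L1 tags and tags without a repeat. L1 bars exceed the grey bars from 0.1 to 1 Mb in both 1FA groups (46.0% and 41.3% in mESC, 38% and 31.5% in mOPC), and contacts within 1 kb fill the NPM groups (95.2% and 96.5% of L1 interactions).

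In the 1FA groups, contacts with other chromosomes were rare among L1 tags. They made up 0.158%, 0.153% and 0.110% of L1 interactions in mESC 1FA and 0.233%, 0.250% and 0.326% in mOPC 1FA. Tags without a repeat had 2.98%, 2.20% and 1.67% in mESC 1FA and 14.4%, 13.6% and 12.2% in mOPC 1FA. The L1 share was below in all 6 libraries, by 7.65 points on average (exact p = 0.031, adjusted p = 0.039). Thinned to equal numbers the difference was −9.01 points and did not pass after adjustment (adjusted p = 0.0521, exact). In NPM the L1 trans shares were 2.42% and 4.00% in mESCs and 1.15% and 1.43% in mOPCs. Without Malat1, a nuclear noncoding RNA, and Gm22973 the difference was −0.431 points, below 0 in all 6 libraries.

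The few trans contacts of L1 tags had a common target in mESCs. Of 133 in mESC 1FA, 122 had their DNA tag in 1 bin, chr17:39825001-39850000, which holds a ribosomal RNA gene annotated in GENCODE M21. It took 75 of 75 in mESC 2FA and 401 of 441 in mESC NPM. In mOPC 1FA the same bin took 49 of 268, and the others were spread over further bins, with 89 of the 268 from Lhfpl3. In mOPC NPM this bin took 113 of 437. Among tags without a repeat, this bin held 14.1% of the trans contacts in mESC 1FA, 25.4% in mESC 2FA and 1.31% in mOPC 1FA. It held 72.0% and 89.9% of them in the mESC NPM libraries and 5.00% and 6.00% in the mOPC NPM libraries. As a share of all interactions, cis and trans, the bin was no more frequent among L1 tags in mESCs. In mESC 1FA it held 0.149%, 0.149% and 0.101% of L1 interactions, against 0.322%, 0.463% and 0.237% of those without a repeat. In mESC NPM the values were 2.23% and 3.79% against 2.46% and 4.56%, and in mOPC NPM 0.265% and 0.424% against 0.232% and 0.438%.

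The long reach of L1 tags was for the greater part shared by the other RNA of their host genes. Tags without a repeat were weighted so that they came from the same genes in the same proportions as the L1 tags, which was possible for at least 99.9% of L1 interactions in every library of the 1FA groups. The difference in median distance was then 5.69 kb in place of 52.1 kb (higher in 5 of 6 libraries, exact p = 0.0625, adjusted p = 0.234). The differences were 0.290 points from 100 kb to 1 Mb (adjusted p = 0.365), 0.239 points beyond 1 Mb (adjusted p = 0.234), −0.176 points within 1 kb (adjusted p = 0.625) and −0.009 points in trans (adjusted p = 0.75), all by the exact sign-flip test and none past it. Restricting both kinds of tag to introns gave a difference in median distance of 5.43 kb. The pairs in the files were called per transcript, over all of its tags, so L1 tags and the other tags of a gene entered the lists together.

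**Figure D3:**
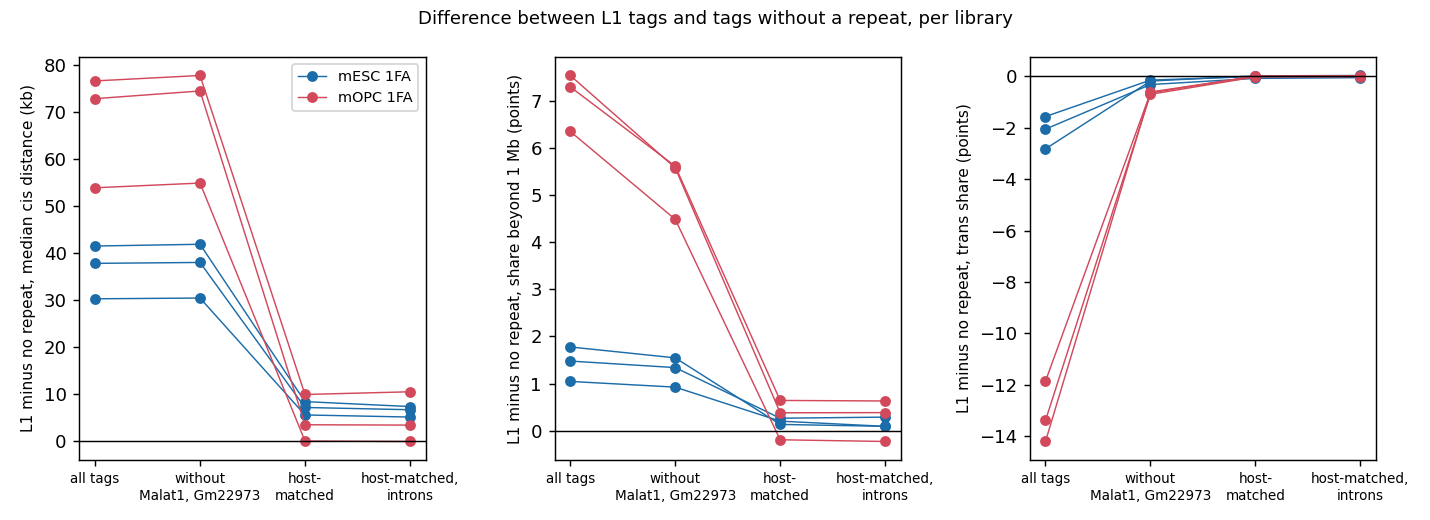
Difference between L1 tags and tags without a repeat in median cis distance (kb), share beyond 1 Mb (percentage points) and trans share (percentage points). Each line is a 1FA library, at 4 settings from left to right (all tags, without Malat1 and Gm22973, host-matched, and host-matched in introns); the mean median-distance difference is 52.1 kb at the first and 5.69 kb when host-matched.

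In NPM libraries, L1 RNA was often ligated to the element it came from. The DNA tag lay in the same L1 element as the RNA tag in 49.6% and 49.2% of L1 interactions of mESC NPM and in 55.2% and 50.0% of those of mOPC NPM. In mESC 1FA this share was 1.08%, 2.40% and 1.57%, and in mOPC 1FA 5.28%, 1.61% and 2.52%, so that the NPM and 1FA libraries were far apart. In mESC NPM it was 40.1 ± 0.78% for elements under 500 bases, 70.9 ± 1.7% from 500 to 2000 bases and 78.8 ± 7.2% for longer ones, and the order was the same in mOPC NPM (41.1%, 73.8% and 83.8%).

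The share close to the RNA in NPM was higher than for tags without a repeat. Within 1 kb lay 95.2 ± 0.73% of L1 interactions and 84.8 ± 1.2% of those without a repeat in mESC NPM, and 96.5 ± 0.76% and 86.6 ± 1.0% in mOPC NPM (n = 2 each). Matched for host genes, the L1 share was higher by 7.63 points in mESC NPM and 4.77 points in mOPC NPM, and within introns alone by 2.08 and 1.15 points. The trans share in mESC NPM was 3.21% for L1 tags, against 4.04% for tags without a repeat.

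Lx elements made up more of the L1 contacts in mOPCs than in mESCs. The 21 Lx names held 115690 interactions, the 84 L1M names 172339, the 8 L1_Mus, L1_Mur and L1_Rod names 28537, the 6 HAL1 names 6300 and the 6 L1Md names 3482. Lx made up 34.5%, 30.4% and 31.7% of L1 interactions in mESC 1FA and 40.6%, 42.4% and 40.4% in mOPC 1FA, so the groups did not overlap. The difference of 8.92 points had an exact permutation p of 0.1, the smallest possible (adjusted p = 0.164 over 18 tests). L1M names took 55% in mESC 1FA and 46.2% in mOPC 1FA (exact p = 0.1, adjusted p = 0.164), and the L1_Mus, L1_Mur and L1_Rod names 8.85% and 9.06% (exact p = 0.4).

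Over host genes that carried L1 tags in both lines, the Lx shares of the libraries overlapped between the groups. In the 521 host genes with at least 5 L1 interactions in each of the 6 libraries, the Lx share was 31.5 ± 2.2% for mESC 1FA and 33 ± 1.2% for mOPC 1FA (a difference of 1.44 points, exact p = 0.4). With each of these genes given the same weight, Lx made up 32.7 ± 1.3% of L1 interactions in mOPC 1FA, and 32.6 ± 1.5% was the value of mESC 1FA (a difference of 0.068 points, with an exact p of 0.9). L1M stood at 56.1% and 55.1%, with a difference of 0.926 points (exact p = 0.5). Both comparisons were added after the data had been seen.

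**Figure D4:**
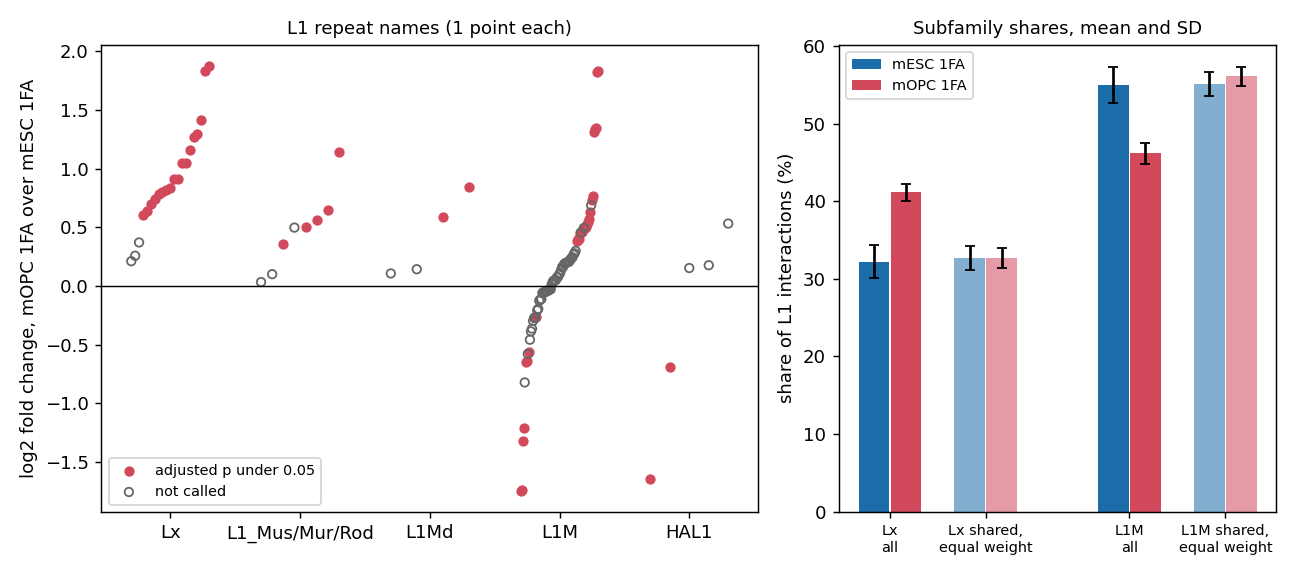
Left, log2 fold change of each L1 name in mOPC 1FA against mESC 1FA (CPM, limma), by subfamily, with called names filled; right, Lx and L1M shares of L1 interactions (percent, mean and SD of 3 libraries) over all host genes and over the 521 shared ones with equal weight per gene. All 21 Lx names lie above 0, and the Lx bars are 41.1% and 32.2% over all hosts and are 32.7% and 32.6% over shared hosts of equal weight, in mOPC 1FA and mESC 1FA.

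L1 names were also tested one by one. Of 119 L1 names tested in mOPC 1FA against mESC 1FA, 45 rose and 10 fell (limma on log2 CPM, adjusted p under 0.05), or 55 in all. Among them, 2 of the rises (L1ME5, L1MEh) and 2 of the falls (HAL1b, L1M2c) passed the low-count filter only through the group where they were high. Their direction was built into their entry. Of all 720 repeat names 36.4% were called, 20% higher and 16.4% lower, and 48.1% did not overlap between the groups, as did 65 of the L1 names. The median log2 fold change was 0.23 for L1 names and 0.01 for all names. Among the Lx names 18 of 21 rose and none fell, among the L1M names 19 of 76 rose and 8 fell, and of 8 L1_Mus, L1_Mur and L1_Rod names 5 rose. Of 4 L1Md names 2 rose, and of 5 HAL1 names 2 fell, of which HAL1b had entered only through mESC 1FA.

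Lx8, the most frequent name, had 874, 679 and 795 CPM in mESC 1FA and 1396, 1360 and 1327 in mOPC 1FA. The groups were apart, with a log2 fold change of 0.81 ± 0.09 (SE, limma adjusted p = 7.45e-05). Lx8b rose by 0.83 ± 0.11 on the log2 scale (adjusted p = 0.00027, limma) and Lx9 by 0.64 ± 0.11 (adjusted p = 0.00102). Lx7 had a log2 fold change of 0.26 ± 0.10 and did not pass (adjusted p = 0.0563).

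The largest rises among names with at least 100 interactions per library were those of Lx3A, Lx3C and L1MB1. Lx3A had 28.9, 16 and 22.2 CPM in mESC 1FA and 92.7, 97.3 and 57.5 in mOPC 1FA (log2 fold change 1.88 ± 0.25, limma adjusted p = 0.000249). L1MB1 went from 46.1, 37.7 and 44.5 to 104, 109 and 113 (1.34 ± 0.13, adjusted p = 4.07e-05), with an element in an intron of Anks1b, a synaptic adaptor gene, listed 90, 105 and 113 times in mOPC 1FA and 0 times in every mESC library. In the other direction, L1MB8 went from 301, 276 and 296 to 257, 224 and 245 CPM (−0.27 ± 0.09, adjusted p = 0.0374), and with each RNA tag position counted once it did not pass (−0.18, limma adjusted p = 0.122).

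L1 names were lower after actinomycin D. In mESC ActD4, 40 of 117 L1 names fell and none rose against mESC 1FA (limma), where 18% of all repeat names were called (1.94% higher, 16.1% lower), and 95 L1 names did not overlap between groups, as 58.0% of all names. The median log2 change was −0.72 for L1 names and −0.48 for all. Of the 117 names only 56 had at least 10 interactions in every library compared, and 26 of the 40 falls were among them. Another 14 of the 40 passed the low-count filter only through mESC 1FA, where they were high, so a fall was built into their entry, and 4 of these were listed at 0 in mESC ActD4. L1-Mur2, L1ME3 and L1-Mus2, the 3 names chosen by the size of their fall, were of this kind and are given as values. L1-Mur2 had 129, 82.7 and 113 CPM in mESC 1FA and 45.4 and 23.8 in mESC ActD4, where these stood for 19 and 6 interactions. L1ME3 had 69.3, 52.8 and 59.0 CPM against 26.3 and 7.94 (11 and 2 interactions), and L1-Mus2 100, 62.3 and 60.4 against 31.0 and 19.9 (13 and 5 interactions). Under TMM scaling 5 names fell and these 3 did not pass, and without mESC 1FA replicate 3 no L1 name fell.

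No L1 name passed the test between the formaldehyde concentrations. Of 117 tested in mESC 2FA against mESC 1FA, 0 were called (limma; 2 had an unadjusted p under 0.05), as were 0.0% of all repeat names, and 5 L1 names did not overlap between groups, where 10.3% of all names did not. In mESC NPM, 4 of 117 L1 names rose and 2 fell (limma), where 10.5% of all names were called (3.6% higher, 6.92% lower) and 48.7% did not overlap. L1MCa went from 98.2, 87.6 and 83.3 CPM in mESC 1FA to 147 and 153 (0.74 ± 0.13, adjusted p = 0.0235), and L1-Mus3 from 250, 172 and 195 to 82.8 and 96.9 (−1.18 ± 0.18, adjusted p = 0.0167). L1-Mur3 rose (0.46 ± 0.10, adjusted p = 0.0406) and L1-Mus1 fell (−1.14 ± 0.25, adjusted p = 0.0396). Without mESC 1FA replicates 1, 2 and 3 in turn, 2, 1 and 0 L1 names were called. Without contacts with the own gene, 1 of the 6 calls was kept, while 3 L1 names rose and 28 fell (limma). Most L1 contacts of mESC NPM lay within 1 kb, so few were left for this fit. Names could then pass the low-count filter through mESC 1FA alone, so the 28 falls are no evidence of a change. The share called over all names at this setting is not given. With own-gene contacts left out, the log2 fold changes were 0.08 for L1MCa (adjusted p = 0.769, limma), −0.57 for L1-Mus3 (0.589), −0.19 for L1-Mur3 (0.592) and −0.0049 for L1-Mus1 (0.992), so none of these 4 names passed.

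More L1 names fell than rose in mOPC NPM. Of 117 L1 names, 3 rose and 21 fell against mOPC 1FA (limma), where 15.4% of all names were called (3.78% higher, 11.6% lower) and 46.5% did not overlap, and 9 of the 21 Lx names and 4 of the 8 L1_Mus, L1_Mur and L1_Rod names were among those that fell. Lx went from 360, 360 and 314 CPM to 112 and 169 (−1.32 ± 0.17, adjusted p = 0.00236), and Lx2 from 268, 241 and 205 to 98.2 and 114 (−1.16 ± 0.14, adjusted p = 0.00236). L1-Mus1 fell by 1.22 on the log2 scale (SE 0.19, adjusted p = 0.00507). Without mOPC 1FA replicates 1, 2 and 3 in turn, 6, 7 and 10 of the 24 calls were left, with TMM scaling 7 names rose and 13 fell, and without contacts with the own gene 2 rose and 63 fell (limma). Most L1 contacts of mOPC NPM lay within 1 kb, so few were left without own-gene contacts. Names could then pass the low-count filter through mOPC 1FA alone, so the 63 falls are no evidence of a change. The share called over all names at this setting is not given.

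The leading host genes differed between the lines except for Kcnq1ot1, which was among the leaders of both. Kcnq1ot1 had 608, 440 and 466 L1 interactions in the mESC 1FA libraries and 560, 539 and 547 in mOPC 1FA, or 17.4 ± 0.72 and 21.6 ± 1.7 per 100 interactions without a repeat. The other leading hosts in mESC 1FA were Ntn1 (mean 318 L1 interactions per library), Exoc4 (311), Cobl (240.0), the recombination gene Rad51b (232), the methyltransferase gene Smyd3 (222), Arl15 (218), the nuclear transport receptor gene Ranbp17 (205), the mitochondrial peptidase gene Immp2l (169) and D030068K23Rik (149). All of these had fewer in mOPC 1FA, from a mean of 0 for D030068K23Rik to 62.3 for Smyd3.

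In mOPC 1FA, Lhfpl3, a membrane protein gene known as a marker of oligodendrocyte progenitors, led with 629, 662 and 583 L1 interactions, and it was listed at 0 in every mESC library. It was followed after Kcnq1ot1 by Anks1b (433), the neuron navigator gene Nav3 (413), Babam2 (397), Nkain2 (365), the adhesion gene Cntn1 (320), the kainate receptor gene Grik2 (290), the phosphatase gene Ppp1cb (282) and Plcb1, a phospholipase C gene (245). In mESC 1FA these 8 had means from 0 (Cntn1, Grik2) to 45 (Babam2). The 10 leading hosts of mOPC 1FA held 11.3% to 12.4% of the L1 interactions of its libraries, and those of mESC 1FA 7.70% to 8.56% of theirs.

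**Figure D5:**
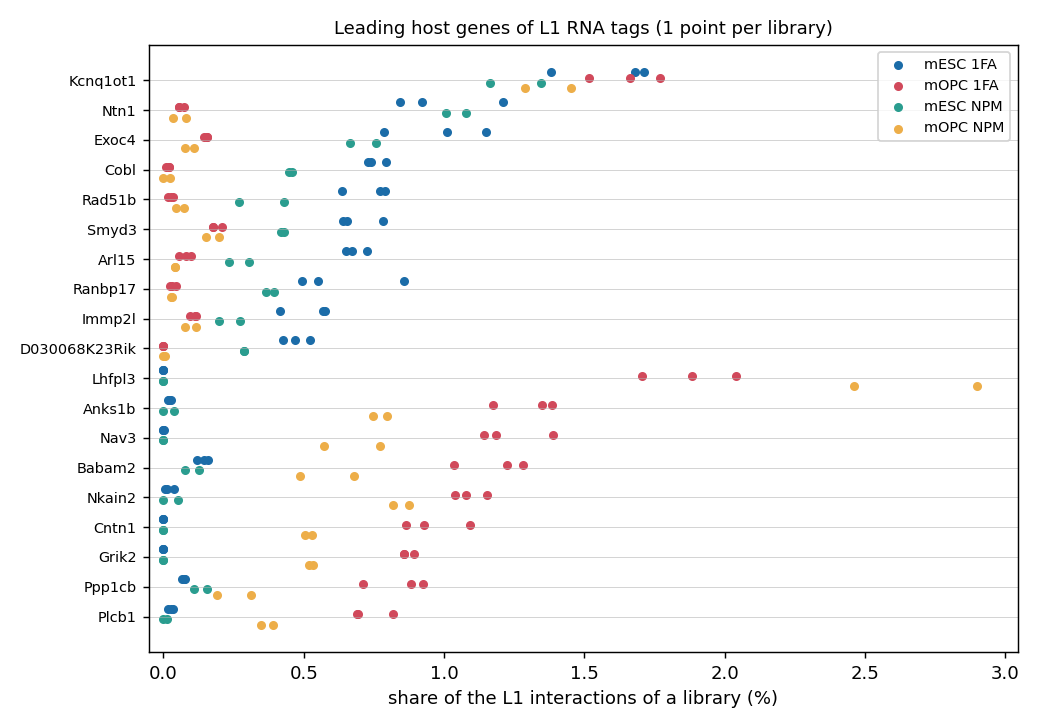
Share (percent) of the L1 interactions of a library that came from each leading host gene; points are libraries of mESC 1FA, mOPC 1FA, mESC NPM and mOPC NPM. Kcnq1ot1 lies above 0 in all 4 groups, while Lhfpl3 is listed at 0 in every mESC library.

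Leading hosts drew their L1 tags from between 8 elements (Ppp1cb) and 145 (Nkain2), each in the 1FA group where it led. In Lhfpl3, 1 L1M4 element of 1461 bases (chr5:22809982-22811442, plus) had 671 interactions over the series, 150, 133 and 128 of them in mOPC 1FA. The gene had 1874 L1 interactions in 71 elements in mOPC 1FA. In Ntn1, an L1MB7 element of 271 bases (chr11:68360367-68360637, minus) had 145, 56 and 90 in mESC 1FA and 12, 10 and 2 in mOPC 1FA. Ntn1 had 955 L1 interactions in 11 elements in mESC 1FA. In Ppp1cb, an Lx8 element (chr5:32494440-32494774, plus) had 10, 7 and 10 in mESC 1FA and 151, 151 and 114 in mOPC 1FA. Ppp1cb had 845 L1 interactions in 8 elements in mOPC 1FA. The L1 tags of Nkain2 lay in 145 elements, those of Grik2 in 89 and those of Plcb1 in 82 in mOPC 1FA, and those of Immp2l in 63 in mESC 1FA.

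L1 tags of these genes reached far along the chromosome. The median cis distance was 1494 ± 459 kb for L1 tags of Ntn1 and 1003 ± 166 kb for those of Exoc4 in mESC 1FA, and 2819 ± 481 kb for those of Anks1b in mOPC 1FA. L1 tags of Kcnq1ot1 contacted their own gene in 10.9 ± 2.9% of cases in mESC 1FA and 15.1 ± 1.5% in mOPC 1FA, with median distances of 614 ± 68 kb and 456 ± 81 kb. The mOPC leaders, Lhfpl3, Babam2 and Ppp1cb, lie in the first 45 Mb of chromosome 5. This region gave 9.15% of L1 tags in mOPC 1FA and 1.74% in mESC 1FA, and 5.68% and 1.16% of tags without a repeat, and its part in the results was not tested beyond leaving it out. Without it, the L1 share in mOPC 1FA still exceeded that in mESC 1FA, by 0.339 points (exact permutation p = 0.1), and the Lx share by 8.40 points.

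Few host genes passed a test of L1 tags against the other tags of the gene. The ratio of L1 tags to tags without a repeat was tested for 794 host genes between mOPC 1FA and mESC 1FA, and 6 rose and 4 fell (limma, adjusted p under 0.05), or 1.26% of those tested (0.756% higher, 0.504% lower), with 19.1% not overlapping between groups, while 99 had an unadjusted p under 0.05. With a prior count of 2 in place of 0.5, 107 genes were called. None of the leading hosts tested was called. In Kcnq1ot1 the log2 ratio was higher by 0.31 ± 0.23 in mOPC 1FA (adjusted p = 0.621), and in Ntn1 by 0.31 ± 0.26 (adjusted p = 0.639).

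Fgfr2, Gm42416 and Enox1 were exceptions with at least 10 L1 tags in every 1FA library. For Enox1 the log2 ratio was higher by 2.19 ± 0.25 in mOPC 1FA (limma adjusted p = 0.00744). L1 tags of Fgfr2 numbered 150, 122 and 145 against 21133, 20952 and 23886 without a repeat in mESC 1FA, and 47, 53 and 55 against 2144, 2433 and 2215 in mOPC 1FA. The ratio rose from 0.633 ± 0.07 to 2.28 ± 0.17 per 100 (log2 1.86 ± 0.24, limma adjusted p = 0.0101). With replicate number as a block Fgfr2 did not pass (limma adjusted p = 0.054), and it was not called in 4 of 6 fits with 1 library left out. The noncoding gene Gm42416 had 10, 14 and 12 L1 tags against 444, 340 and 444 in mESC 1FA and 134, 92 and 87 against 554, 525 and 513 in mOPC 1FA, from 3.02 to 19.6 per 100 (2.67 ± 0.31, adjusted p = 0.00744). Gm42416 was not called in 2 of 6 fits with 1 library left out. For Ash2l, a subunit of histone H3K4 methyltransferases, L1 tags numbered 147, 106 and 127 in mESC 1FA and 0, 0 and 1 in mOPC 1FA. Only 169 tags without a repeat were listed in mOPC 1FA (−3.20 ± 0.58, limma adjusted p = 0.0382). Ash2l entered the test only through mESC 1FA, where it was high, so a fall was built into its entry and its p-value is no evidence of one. Without contacts with the own gene it did not pass (−2.57, limma adjusted p = 0.132). The named 5031425E22Rik (1.46 ± 0.25, limma adjusted p = 0.0331) and 6030443J06Rik (−1.56 ± 0.27, adjusted p = 0.0331) had only 4 and 3 L1 tags in mESC 1FA in all and entered only through mOPC 1FA. For 5031425E22Rik a rise was thereby built into its entry, so its p-value is no evidence of one. With a prior count of 2, 5031425E22Rik did not pass (0.59, limma adjusted p = 0.166). With a prior in proportion to the gene, 6030443J06Rik did not pass (−0.62, limma adjusted p = 0.302). Among genes with at least 10 L1 interactions in every library, 3 of the 10 calls were kept. Of the 10, 2 rises and 2 falls had entered only through the group where they were high. Without mESC 1FA replicate 3 or mOPC 1FA replicate 2 no host gene was called.

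In the other comparisons the number of genes called depended on the setting, except in mESC 2FA, where it was 0 at every setting. As fitted here, it was 0 of 796 genes in mESC 2FA (0.0%; limma, 40 at an unadjusted p under 0.05), 0 of 694 in mESC ActD4 (0.0%; 109 at an unadjusted p under 0.05), 12 of 807 in mESC NPM (1.49%; 0.372% higher, 1.12% lower) and 9 of 732 in mOPC NPM (1.23%; 0.41% higher, 0.82% lower). The shares of genes whose groups did not overlap were 10.2%, 35.6%, 43.0% and 32.9%. All 9 falls in mESC NPM and all 6 in mOPC NPM had entered only through the 1FA group, where they were high. Of the rises, 2 of 3 in mESC NPM and 1 of 3 in mOPC NPM had entered only through the NPM group. The direction of these calls was built into their entry, so they are no evidence of a change. Of the falls, 7 had 0 L1 tags in mESC NPM, among them Nfatc3 (mean 37.7 L1 tags in mESC 1FA), Prrc2c and Zfp106, as did Pum2 in mOPC NPM. Among genes with at least 10 L1 interactions in every library, 0 of the 12 and 2 of the 9 calls were kept. With a prior count of 2, 162 genes were called in mESC ActD4 and 156 in mESC NPM (limma), and with a prior in proportion to the gene 33 and 26. Fits with 1 library left in a group assume that it varies like the other group, whose spread they use. Of these, leaving out ActD4 replicates 1 and 2 in turn gave 131 and 124, and leaving out mESC NPM replicates 1 and 2 gave 96 and 185. In fits with 2 libraries in each group, leaving out mESC 1FA replicates 1, 2 and 3 gave 0, 1 and 0 in mESC NPM. In mOPC NPM the counts were 0, 1 and 0 without mOPC 1FA replicates 1, 2 and 3, and, with 1 mOPC NPM library, 4 and 18 without mOPC NPM replicates 1 and 2.

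Genes known for control of L1 were also compared, as RNA on chromatin and not as expression. Of 35 listed genes 34 were tested between mOPC 1FA and mESC 1FA, and 6 rose and 21 fell (limma with TMM scaling over 10256 transcripts, of which 77.5% were called, 34.4% higher and 43.2% lower, and 80.2% did not overlap), with a median log2 fold change of −0.88 against −0.22 for all transcripts. Scaled by library totals the median of all transcripts was −0.73 and that of the control genes −1.39, and 2 rose and 24 fell. The shares of all transcripts called at that scaling are not given, so these counts cannot be read as particular to the control genes. Of the 21 falls, 7 entered the test only through mESC 1FA, where they were high (Trim28, Mphosph8, Dnmt3b, Dnmt3l, Dppa2, Dppa4 and Mettl3, of which 4 were listed at 0 in mOPC 1FA), and Dnmt3l, Dppa2 and Dppa4 are also on the list of mESC markers, so these falls are given as values with no test. Trim28, the corepressor of KRAB zinc finger proteins, had 111, 82 and 90 interactions in mESC 1FA and 9, 8 and 5 in mOPC 1FA. Contacts of RNA from the HUSH subunit gene Tasor fell (−2.31 ± 0.12, limma adjusted p = 6.26e-07), and those from Mphosph8, of the same complex, numbered 18, 8 and 20 in mOPC 1FA. Those from the HUSH subunit gene Pphln1 rose (2.21 ± 0.10, adjusted p = 2.44e-07).

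Of the DNA methylation genes with at least 10 interactions in every 1FA library, Dnmt1 and Uhrf1 fell and Dnmt3a rose. The maintenance methyltransferase gene Dnmt1 had a log2 fold change of −1.33 (limma adjusted p = 2.69e-05). Uhrf1, which recruits the product of Dnmt1, fell by 3.31 on the log2 scale (SE 0.23, limma adjusted p = 3.18e-06). Dnmt3b had 137, 183 and 196 interactions in mESC 1FA and 6, 7 and 9 in mOPC 1FA. Dnmt3l had 110, 124 and 136 interactions in mESC 1FA and was listed at 0 in mOPC 1FA. The de novo methyltransferase gene Dnmt3a rose (1.79 ± 0.10, adjusted p = 6.93e-07), as did Hnrnpu (0.83 ± 0.18, adjusted p = 0.00313) and Ncl (0.74 ± 0.14, adjusted p = 0.00132), which encode nuclear RNA-binding proteins. Scaled by library totals Hnrnpu (0.32, limma adjusted p = 0.113) and Ncl (0.22, adjusted p = 0.126) did not pass, while Dnmt3a (1.27) and Pphln1 (1.70) did.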

How the data were processed

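RADICL-seq was measured in 15 libraries of cultured mouse cells. The authors took RNA and DNA tags from the reads, discarded ribosomal and duplicate ones, aligned the rest to mm10 with BWA 0.7.15-r1140 (CASAVA 1.8 is also named in the submitters' processing notes) and kept uniquely mapped tags, so that near-identical young L1 copies are under-represented. Pairs of transcript and 25-kb bin were called by the authors with a binomial test, and each pair had 1 deposited p-value in all replicate files of its group, as it would be for a test on pooled replicates. The deposited files list positions, annotations and repeat overlaps with other fields per interaction, and no counts. An interaction was a distinct RNA and DNA position, and exact copies were counted once. RefSeq (GRCm38) gave sequence (read for 1 in 20 of the tags without a repeat) and GENCODE M21 gave symbols.

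Shares were compared by two-sided exact permutation over libraries, L1 tags with tags without a repeat by exact sign flips, and tallies per repeat name, host gene and transcript with limma 3.58.1 in R 4.3.3 (log2 CPM scaled by library totals for names and by trimmed mean of M values, TMM, for transcripts, log2 ratio of L1 tags to tags without a repeat for host genes, prior count 0.5, at least 10 interactions in the smaller group's number of libraries and 15 in all, Benjamini-Hochberg adjustment, called at 0.05). Contrary to the design, host genes needed at least 10 interactions without a repeat in every library compared, because genes missing in 1 group had otherwise been called. Named were the 10 leading L1 names, the 3 largest called rises and falls with at least 100 interactions per library in a group and no overlap between groups, the 10 leading hosts of each 1FA group, and the called hosts with at least 100 L1 interactions and the 3 largest rises and falls. Enox1 was named outside this rule, as a called host with at least 10 L1 interactions in every 1FA library. Python 3.11.15 was used for tallies, and the scripts were tested on simulated data. Alternatives were other scalings, filters and priors, thinning to equal numbers, leaving out libraries, own-gene contacts, Malat1 and Gm22973, and, added after the data had been seen, leaving out the ribosomal bin or part of chromosome 5, and shared hosts. Trex1 and the marker Dppa5a were not matched and are not reported here. Members and gene lists were chosen with earlier results of these data known.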

Additional observations from a re-analysis of the deposited data

Results flagged for a closer look

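In 7 cases the difference between L1 tags and tags without a repeat had 1 sign in every NPM library and the opposite sign in every 1FA library of the same line, with 2 and 3 libraries. All pairs of groups compared and all distance and trans measures were searched for such cases, with and without host matching. Without matching, the own-gene share was searched too. The cases were picked by their signs, so their groups were apart by selection and the exact p-values given for them are no evidence. In mESCs this opposition of signs held for the share within 1 kb. The difference there was 10.4 points in NPM and −0.904 in 1FA and so changed by 11.3 points (exact permutation p = 0.1). It held for the share from 100 kb to 1 Mb, with −0.069 and 4.64 points and a change of −4.71 points (exact p = 0.1). It held for the median cis distance, with −0.094 and 36.5 kb and a change of −36.6 kb (exact p = 0.1). In mOPCs the median cis distance showed it, with −0.094 and 67.7 kb and a change of −67.8 kb (exact p = 0.1).

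Matched for host genes, it held in mESCs for the share within 1 kb, which changed by 8.21 points (exact permutation p = 0.1), for the share from 100 kb to 1 Mb, which changed by −0.766 points (exact p = 0.2), and for the median cis distance, which changed by −7.06 kb (exact p = 0.1). With 2 against 3 libraries an exact p cannot fall below 0.1. No cause was tested.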

How the results depend on the processing

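Interactions were listed only for called pairs, the NPM and ActD4 groups had 2 libraries, and ActD4 libraries held at most 3272 L1 interactions, so small changes of single names there could not be measured. Of the main results under alternatives other than leaving out a library, 276 were labelled the same, 26 weaker, 19 stronger and 18 reversed, and the causes were not tested. A count of calls was labelled the same at a similar size, whichever members were called. So was a test of unchanged sign that failed both times. Of host genes between cell types, 10 were called as fitted and 12 where every library needed 10 L1 interactions, and 3 were shared. Without own-gene contacts the L1 share differed by −0.209 points in mESC NPM and by −0.076 between cell types over both conditions, the share within 1 kb by −0.094 (past the test), and in mESC NPM Lx by 0.535, L1M by −2.16, L1_Mus, L1_Mur and L1_Rod names by 0.762 and L1Md by 0.2004 points. L1 names that fell were then 28 in mESC NPM and 63 in mOPC NPM, host genes called 4 between cell types, 30 in mESC NPM and 16 in mOPC NPM, and L1-Mur3 had −0.19 (log2) in mESC NPM. Few L1 contacts were left in NPM at this setting, so the name counts there are no evidence of a change. Thinned to equal numbers, NPM against 1FA gave 0.0076 points, trans −9.01, 100 kb to 1 Mb 6.63, beyond 1 Mb 1.12 points and the median distance 16.4 kb, the last 4 no longer past the test, with L1Md between cell types at −0.339 and HAL1 in ActD4 at −0.415 points. Host-matched these distance measures were −0.0091, 0.290, 0.239 points and 5.69 kb, and in introns 0.0037, 0.297, 0.210 points and 5.43 kb. Over shared hosts of equal weight L1M differed by 0.926, L1_Mus, L1_Mur and L1_Rod names by −0.807, HAL1 by 0.180 and L1Md by −0.101 points, and with no weight the last 3 by −0.827, 0.122 and −0.0069 points. With each tag position once, 6 L1 names fell between cell types, 8 rose in mESC NPM, 13 fell in mOPC NPM, and 4 host genes were called in mOPC NPM. Under TMM scaling 5 names fell in ActD4, and 7 rose and 13 fell in mOPC NPM. Relative to interactions without a repeat 7 fell in mESC NPM, and with no low-count filter 11 fell in mOPC NPM. Host genes called with a prior of 2 were 107 between cell types, 162 in ActD4 and 156 in mESC NPM. With a minimum of 30 they were 5 in ActD4, 21 in mESC NPM and 5 in mOPC NPM, with 10 L1 interactions in every library 1, 20 and 18 (keeping 0 of 12 calls in mESC NPM and 2 of 9 in mOPC NPM), and with a proportional prior 33 in ActD4 and 26 in mESC NPM. Scaled by totals, 2 control genes rose, and the share of all transcripts that rose at that scaling is not given.

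Where leaving out a library left 1 in ActD4 or NPM, it was assumed to vary like the other group. Leaving out 1 library gave trans −8.86 to −6.33, 100 kb to 1 Mb 5.35 to 5.95, beyond 1 Mb 3.59 to 4.89 points and a median distance of 47.2 to 56.5 kb (5 libraries cannot pass the exact test), host-matched trans −0.016 to 0.0043, the share in 2FA −0.075 to 0.056 and HAL1 in ActD4 −0.259 to 0.534 points. L1 names that fell between cell types were 6 to 9 (6 without mESC 1FA replicate 3 or mOPC 1FA replicate 2), those that rose in ActD4 0 to 3 and fell 0 to 73 (18, 11 and 0 without mESC 1FA replicates 1, 2 and 3, and 73 and 66 without ActD4 replicates 1 and 2). In mESC NPM 0 to 10 rose and 0 to 9 fell, with at most 1 of each without any mESC 1FA library. In mOPC NPM 1 to 6 rose and 5 to 31 fell (5, 6 and 9 without mOPC 1FA replicates 1, 2 and 3). Host genes called were 0 to 9 between cell types, 0 to 131 in ActD4, 0 to 185 in mESC NPM and 0 to 18 in mOPC NPM, and control genes that rose 5 to 10 (10 without mOPC 1FA replicate 3).

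Replicate numbers did not pair the samples in every comparison. Same-number correlations of deviations between cell types were 0.410, −0.326 and 0.191 over 276 repeat names, against at most −0.119, 0.310 and 0.629 with other numbers. Those of 2FA with 1FA were 0.347, 0.493 and 0.042, against at most −0.117, 0.083 and 0.121, so replicates 1 and 2 went with their numbers there. The remaining same-number values were −0.257 to 0.145. With the replicate block, 0 L1 names fell in ActD4 and 0 rose and 0 fell in mESC NPM (limma), and host genes called were 3 between cell types, 2 in ActD4, 0 in mESC NPM and 0 in mOPC NPM, while 47 names rose and 10 fell between cell types.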
